A study of Mus musculus with 16 samples.

Results

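Iron and heme handling genes were described in cells from the mouse peritoneal cavity that are labelled tumour-associated macrophages (TAMs), the macrophages that gather around a tumour. The 10 genes were Hp, Hmox1, Slc48a1, Slc11a1, Tfrc, Trf, Fth1, Ftl1, Slc40a1 and Cp. Each was read by every probe set, a group of short array probes against 1 transcript, annotated with that symbol alone. This gave 8 of the 10 genes, of 18194 genes so measured in all, through 23 of 45101 probe sets. Cp had 8 of them, Tfrc 6, and Fth1, Slc40a1 and Slc48a1 had 2 each, while Hp, Hmox1 and Slc11a1 had 1 each. Ftl1, with 3 probe sets, and Trf, with 1, were covered only by sets that list several symbols, so no value is given for either gene. The genes share a function, and were chosen with earlier results of these data known.

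RNA was hybridized to 16 Affymetrix mouse genome arrays, 4 in each of 4 groups. The groups were CCR2+ control, CCR2+ RbpjiΔEC, CCR2- control and CCR2- RbpjiΔEC. All mice were female C57BL/6N, received 1 mg of tamoxifen in 100 µl by gavage at 8 to 12 weeks of age, and 3 weeks later were given 5000000 cells of ID8-luc, an ovarian cancer line of the mouse that carries luciferase, into the peritoneal cavity. The tumours grew for 4 weeks, and cells were recovered with 5 ml of cold saline and sorted as CD45+ CD11b+ F4/80+ cells, with or without CCR2, the receptor that brings inflammatory monocytes to tissue. In RbpjiΔEC mice Rbpj, through which activated Notch receptors act on DNA, is deleted on tamoxifen in endothelial cells. The labels name neither the Cre driver nor the alleles of the control mice, nor do they say whether each array came from a separate animal. Since the deletion is in endothelial cells, Rbpj in the sorted cells does not check the genotype label. It differed between genotypes by 0.07 (SE 0.152) log2 units in the CCR2+ and −0.09 (SE 0.152) in the CCR2- arrays.

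Macrophages are the main recyclers of body iron. Haptoglobin captures free haemoglobin, and engulfed haemoglobin yields heme, which HRG1 (Slc48a1) moves out of the phagolysosome and heme oxygenase 1 (Hmox1) opens to release iron, biliverdin and carbon monoxide. NRAMP1 (Slc11a1) pumps iron and other divalent metals out of the phagosome, and iron bound to transferrin (Trf) enters through the transferrin receptor (Tfrc). Iron is then stored in ferritin, a shell of heavy (Fth1) and light (Ftl1) chains, or leaves through ferroportin (Slc40a1), helped by ceruloplasmin (Cp), a copper enzyme that oxidizes it. Iron regulatory proteins hold back ferritin translation and protect the Tfrc transcript when iron is low, so that protein need not follow the RNA measured here.

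The labels and the arrays did not match in one respect that bears on every comparison of CCR2+ with CCR2-. Ccr2 itself was lower in the CCR2+ than in the CCR2- control arrays, at 7.99 ± 1.05 against 9.99 ± 1.08 log2 units (mean ± SD, n = 4 each, limma adjusted p = 0.0179). In RbpjiΔEC mice it read 7.69 ± 0.469 against 8.94 ± 1.32 and did not pass (−1.26, SE 0.633, adjusted p = 0.133). The sorting markers were higher in CCR2+ control arrays, Adgre1 (F4/80) by 4.04 (SE 0.129) and Itgam (CD11b) by 3.25 (SE 0.0770), and Ptprc (CD45) differed by −0.34 (SE 0.151, limma adjusted p = 0.0834). The mean of 12 large peritoneal macrophage markers, Gata6 among them, was 12.85 to 13.06 over the 8 arrays labelled CCR2+ and 7.16 to 7.87 over the 8 labelled CCR2-. The mean of 9 measured B cell markers, Cd79a among them, ran the other way, from 6.98 to 7.25 against 12.11 to 12.34. All 12 macrophage markers were higher and all 9 B cell markers lower in the CCR2+ arrays of both genotypes (limma adjusted p under 0.05). CCR2+ and CCR2- therefore name deposited labels below, and no difference between them is given as one between 2 kinds of macrophage. In bulk RNA, fewer cells of a type and less RNA per cell cannot be told apart. The deposited columns also differed in kind, with array mean intensities of 821.5 to 827.3 in CCR2+ and 481.0 to 762.0 in CCR2- arrays, so label and column kind cannot be told apart either. Values below are log2 intensities after quantile normalization over the 16 arrays. Bacterial trp control sets, which have no target in mouse RNA, read 6.03 to 6.72 on that scale.

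The stretch just before the annotated gene start is shown for Tfrc, Slc11a1 and Cp to set their base composition side by side. Called Tfrc sets were lower in the CCR2+ arrays and Slc11a1 was higher, while Cp had 6 sets higher and 1 lower. The sequences are RefSeq's (GRCm38.p6), plus strand, at chr16:32608646-32608895 for Tfrc, chr1:74374953-74375013 for Slc11a1 and chr3:19956804-19956932 for Cp, and hold only bases upstream of the annotated gene.
Tfrc: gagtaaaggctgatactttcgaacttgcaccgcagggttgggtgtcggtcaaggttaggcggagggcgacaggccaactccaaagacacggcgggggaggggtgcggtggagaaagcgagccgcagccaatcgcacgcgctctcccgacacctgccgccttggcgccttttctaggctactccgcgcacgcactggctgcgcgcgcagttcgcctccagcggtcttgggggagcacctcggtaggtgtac
Slc11a1: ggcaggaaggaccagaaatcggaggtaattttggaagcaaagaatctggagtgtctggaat
Cp: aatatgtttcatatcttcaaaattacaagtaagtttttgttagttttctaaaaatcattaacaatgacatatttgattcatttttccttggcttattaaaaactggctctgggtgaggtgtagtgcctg

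The Tfrc stretch of 250 bases was 64.8% G or C and held 25 CG pairs. The Slc11a1 stretch of 61 bases was 45.9% G or C with 1 CG pair, and the Cp stretch of 129 bases was 29.5% G or C with 0. For Fth1, not printed above, the stretch of 250 bases was 34.8% G or C with 3 CG pairs. These stretches differ in length, and a link between base composition and direction was not tested. In the 250 bases before each start site that the RefSeq table gives for Slc11a1, Fth1, Ftl1, Tfrc and Cp, 4 motifs were searched on both strands. They were the hypoxia response core ACGTG, found in 16.6% of 32851 mouse promoters of that length, the antioxidant response element TGACNNNGC (10.2%), the PU.1 core GAGGAA (23.3%) and the C/EBP site TTGCNNAA (9.56%). Slc11a1 held GAGGAA 152 bases before its start site. One Tfrc start site had ACGTG 228 bases before it, a match that begins in the last bases of the stretch printed above. TTGCNNAA was found 129 and 58 bases before one Fth1 start site and 70 bases before one Cp start site. These are matches of letters only.

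The first comparison asks how the members differ between the 2 sort labels in control mice. Hp, Slc11a1, Hmox1 and most Cp probe sets were 6.27-fold to 25.7-fold higher in the CCR2+ arrays. Ferritin heavy chain was higher by 3.43-fold in 1 set and by 1.22-fold in its brightest set. Of 6 Tfrc sets 3 were lower, by up to 2.20-fold, and 3 did not pass. Slc40a1 did not pass the test. Of the 23 member probe sets 12 were higher, 4 lower and 7 did not pass (limma, adjusted over 34958 probe sets with 1 symbol), where 41.6% of all probe sets passed. By direction the background was 20.9% higher and 20.7% lower. The median difference was 0.425 over the members and −0.0196 over all probe sets. The 6 higher Cp sets are 1 gene and not 6 findings. With each gene held by its probe set of highest mean, 4 of 8 genes were higher and 2 lower, where 40.9% of 18194 genes passed.

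**Figure D1:**
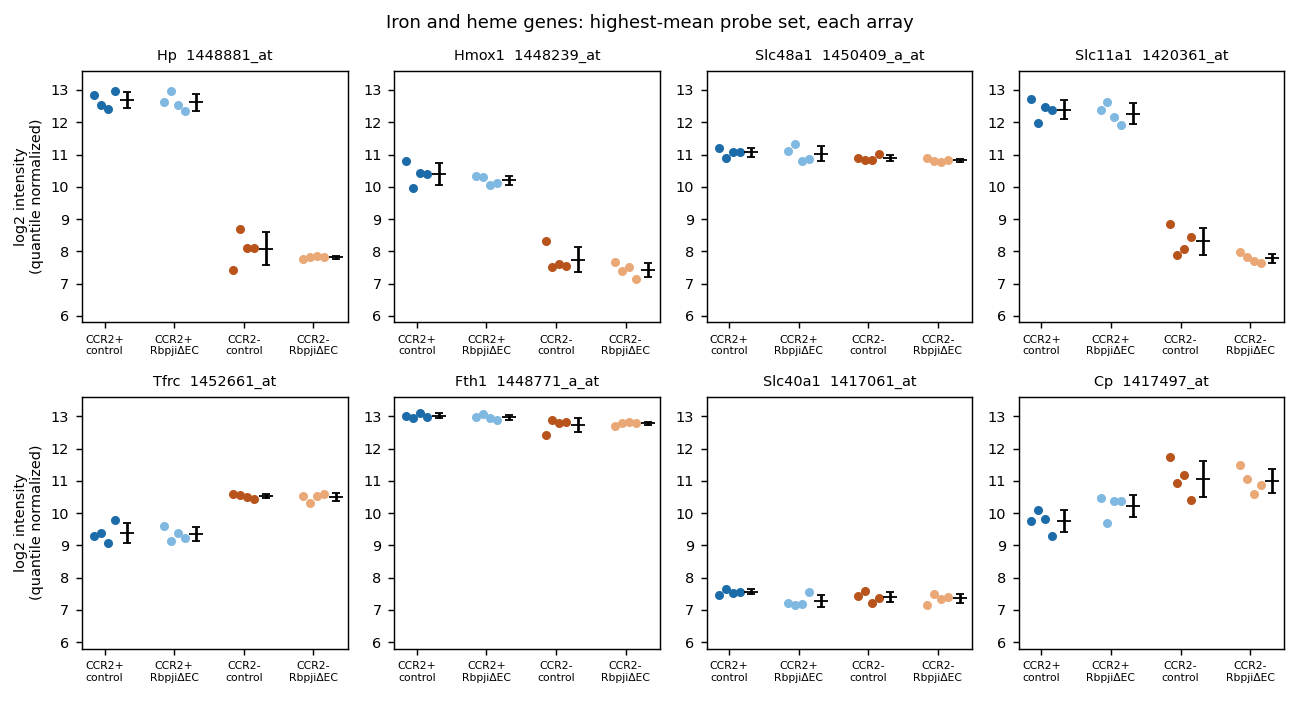
Log2 intensity (quantile normalized) of the highest-mean probe set of each of the 8 genes in each of the 16 arrays, with the 4 groups along the horizontal axis and a bar for the mean and SD of 4 arrays. Hp, Hmox1 and Slc11a1 are separated by sort label with no overlap, Tfrc is separated in the other direction, and Fth1 and Slc48a1 stay within a narrow band.

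Hp encodes haptoglobin, and had the largest difference among the genes with 1 probe set. It read 12.83, 12.55, 12.40 and 12.97 in the CCR2+ control arrays and 7.43, 8.71, 8.10 and 8.09 in the CCR2- control arrays. The groups lay far apart, and the CCR2- control arrays were spread over more than 1 unit. The difference was 4.61 (SE 0.205), or 24.4-fold (limma adjusted p = 1.62e-11). In RbpjiΔEC mice the values were 12.62, 12.97, 12.54 and 12.34 against 7.75, 7.83, 7.84 and 7.83, a difference of 4.81 (SE 0.205, adjusted p = 8.88e-12). Hp is also made by neutrophils and hepatocytes. The mean of 12 neutrophil markers was 8.84 in CCR2- control 2, where Hp was highest among the CCR2- arrays, 7.77 in CCR2- control 3 and 6.86 to 7.03 in the other 6 CCR2- arrays. In the CCR2+ arrays it was 7.40 to 8.45. Of the 12 markers 2 were higher in the CCR2+ arrays of both genotypes and 0 lower. They were Csf3r, by 3.21 (SE 0.197, limma adjusted p = 9.11e-10) in control mice, and Mmp9, by 0.93 (SE 0.313, adjusted p = 0.0239). Over all genes 19.5% were higher and 21.4% lower in control mice, and 18.0% and 21.0% in RbpjiΔEC mice. The other markers did not pass. In control mice Ngp differed by −1.02, Ltf by −0.69, Camp by −0.66, Lcn2 by −0.17, S100a9 by −0.15 and Elane by −0.01. S100a8 differed by 0.42, Mmp8 by 0.20, and Mpo and Cxcr2 by 0.01 each. Cxcr2 was at or under the bacterial controls in all 4 groups, and the part of neutrophils in the Hp values was not tested. The mean of 7 hepatocyte markers was 7.15 to 7.49 in all 16 arrays, with Alb at 7.25 to 7.27 in the 4 groups.

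Slc48a1, the heme exporter of the phagolysosome, moved little. Its set 1450410_a_at read 10.18, 10.07, 9.89 and 10.35 in the CCR2+ and 9.36, 9.61, 9.34 and 9.74 in the CCR2- control arrays. The ranges did not overlap, and the difference of 0.61 (SE 0.119, limma adjusted p = 0.000499) was followed by 0.44 (SE 0.119, adjusted p = 0.00744) in RbpjiΔEC mice. Its brighter set 1450409_a_at differed by 0.18 (SE 0.105, adjusted p = 0.207) and 0.20 (SE 0.105, adjusted p = 0.160), with overlapping ranges. With median centring in place of quantile normalization this set passed, at 0.65 (adjusted p = 0.00481) and 0.55 (0.0173), as it did with no normalization, at 0.71 (0.00202) and 0.84 (0.000323). The differences of 1450410_a_at with no normalization were 0.98 and 0.95.

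Hmox1, the rate-limiting enzyme of heme breakdown, read 10.79, 9.96, 10.41 and 10.39 in the CCR2+ and 8.31, 7.51, 7.59 and 7.55 in the CCR2- control arrays. No CCR2- array reached the lowest CCR2+ array, and 1 CCR2- array stood above the other 3. The difference was 2.65 (SE 0.185), or 6.27-fold (limma adjusted p = 4.79e-09). In RbpjiΔEC mice Hmox1 read 10.34, 10.31, 10.06 and 10.12 against 7.66, 7.40, 7.50 and 7.13. That difference was 2.79 (SE 0.185, adjusted p = 2.51e-09).

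Slc11a1, the phagosomal metal transporter best known for resistance to intracellular bacteria, read 12.71, 11.99, 12.47 and 12.38 in the CCR2+ and 8.84, 7.88, 8.07 and 8.43 in the CCR2- control arrays. The lowest CCR2+ value stood more than 3 units above the highest CCR2- value. The difference was 4.08 (SE 0.200), or 16.9-fold (limma adjusted p = 5.39e-11). In RbpjiΔEC mice the values were 12.38, 12.64, 12.17 and 11.90 against 7.97, 7.82, 7.71 and 7.63, and the difference was 4.49 (SE 0.200, adjusted p = 1.55e-11).

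Tfrc, the receptor that takes up transferrin-bound iron and is abundant on dividing cells, went the other way. Its brightest set 1452661_at read 9.28, 9.39, 9.07 and 9.80 in the CCR2+ and 10.58, 10.56, 10.48 and 10.45 in the CCR2- control arrays. All 4 CCR2+ values lay below all 4 CCR2- values. The difference was −1.14 (SE 0.135, limma adjusted p = 3.07e-06), and −1.16 (SE 0.135, adjusted p = 2.57e-06) in RbpjiΔEC mice. With no normalization it was −0.73 (adjusted p = 0.00283) and −0.61 (0.0108). Set 1422967_a_at also fell, by 0.59 (SE 0.147, adjusted p = 0.00361) and 0.84 (SE 0.147, adjusted p = 0.000191). Set 1422966_a_at did not pass in either genotype, at 0.24 (SE 0.132) and −0.12 (SE 0.132), and with no normalization read 0.22 and 0.09.

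The array also carries Tfrc control sets for the 3′ end, the middle and the 5′ end of the transcript, placed there to show RNA quality. Since Tfrc itself differed between the labels, RNA quality and Tfrc level cannot be told apart in them. The middle set was lower in CCR2+ arrays of both genotypes, by −0.39 (SE 0.117, limma adjusted p = 0.0128) and −0.57 (SE 0.117, adjusted p = 0.000870). With no normalization it passed in neither, at −0.39 (adjusted p = 0.0844) and −0.35 (0.119). The 5′ set differed by −0.15 (SE 0.129, not passed) in control and −0.47 (SE 0.129, adjusted p = 0.00787) in RbpjiΔEC mice. Its CCR2+ RbpjiΔEC arrays read 6.57 to 6.76, at the level of the bacterial controls, so the size of that difference is not known, and with no normalization it did not pass (−0.30, adjusted p = 0.176). The 3′ set passed in neither, at 0.12 and −0.26 (SE 0.113 each). In RbpjiΔEC mice it did pass under median centring (−0.36, adjusted p = 0.0330) and with only those 8 arrays in the fit (0.0403). The 3′ minus 5′ difference within Tfrc was larger in CCR2+ than in CCR2- control arrays, 0.369 ± 0.114 against 0.0939 ± 0.103 (SD, n = 4 each, two-sided exact permutation p = 0.0286, the smallest that 4 against 4 arrays allow). For beta-actin it was 0.262 ± 0.0744 against 0.345 ± 0.0213 (exact permutation p = 0.143). In RbpjiΔEC mice it was 0.320 ± 0.0753 against 0.116 ± 0.119 for Tfrc (exact permutation p = 0.0571) and 0.386 ± 0.0962 against 0.311 ± 0.0739 for beta-actin (exact permutation p = 0.229). The 6 Tfrc sets thus gave 3 calls in control mice and 4 in RbpjiΔEC mice, all lower, the fourth being the 5′ set with its values at the bacterial controls. Leaving out CCR2- control 1 and 3 was an alternative added after seeing the data. Without them 1422967_a_at (−0.42, limma adjusted p = 0.0782) and the middle set (−0.29, adjusted p = 0.138) no longer passed in control mice. Set 1452661_at still did (−1.12, adjusted p = 0.000147).

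Fth1, the iron-oxidizing chain of ferritin, was high in every array. Its set 1427021_s_at read 12.02, 11.96, 11.87 and 11.67 in the CCR2+ and 9.97, 9.98, 10.19 and 10.26 in the CCR2- control arrays. The groups were well separated, with a difference of 1.78 (SE 0.162), or 3.43-fold (limma adjusted p = 1.28e-07), and 1.50 (SE 0.162, adjusted p = 1.01e-06) in RbpjiΔEC mice. Its brighter set 1448771_a_at read 13.02, 12.95, 13.11 and 12.99 against 12.41, 12.88, 12.81 and 12.82. That difference was 0.29 (SE 0.0948, adjusted p = 0.0208), and 0.20 (SE 0.0948, adjusted p = 0.119) in RbpjiΔEC mice. The call in control mice was lost when CCR2+ control 3 was left out (adjusted p = 0.0605), as it was for CCR2- control 1 alone (0.0692), for CCR2- control 1 and 3 together (0.164) and with only the 8 control arrays in the fit (0.0722). Under median centring the set differed by 0.80 in control (adjusted p = 0.00132) and 0.51 in RbpjiΔEC mice (0.0308), and with no normalization by 0.85 (0.000700) and 0.80 (0.00126). The 2 Fth1 sets agreed in direction and not in size.

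Slc40a1, the cell's iron exporter, was dim. Its set 1417061_at read 7.47, 7.66, 7.53 and 7.55 in CCR2+ control, 7.21, 7.15, 7.18 and 7.55 in CCR2+ RbpjiΔEC, 7.42, 7.58, 7.20 and 7.36 in CCR2- control and 7.16, 7.48, 7.35 and 7.41 in CCR2- RbpjiΔEC arrays. The 4 groups overlapped. Set 1448566_at read 6.20 to 6.88 in all 16 arrays, mostly within the range of the bacterial controls. Neither set passed between the labels in control mice, at 0.16 (SE 0.107, limma adjusted p = 0.248) and 0.14 (SE 0.0976, adjusted p = 0.291), or in RbpjiΔEC mice, at −0.08 (SE 0.107) and −0.16 (SE 0.0976). Under median centring 1448566_at passed in RbpjiΔEC mice, at −0.38 (adjusted p = 0.0380).

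**Figure D2:**
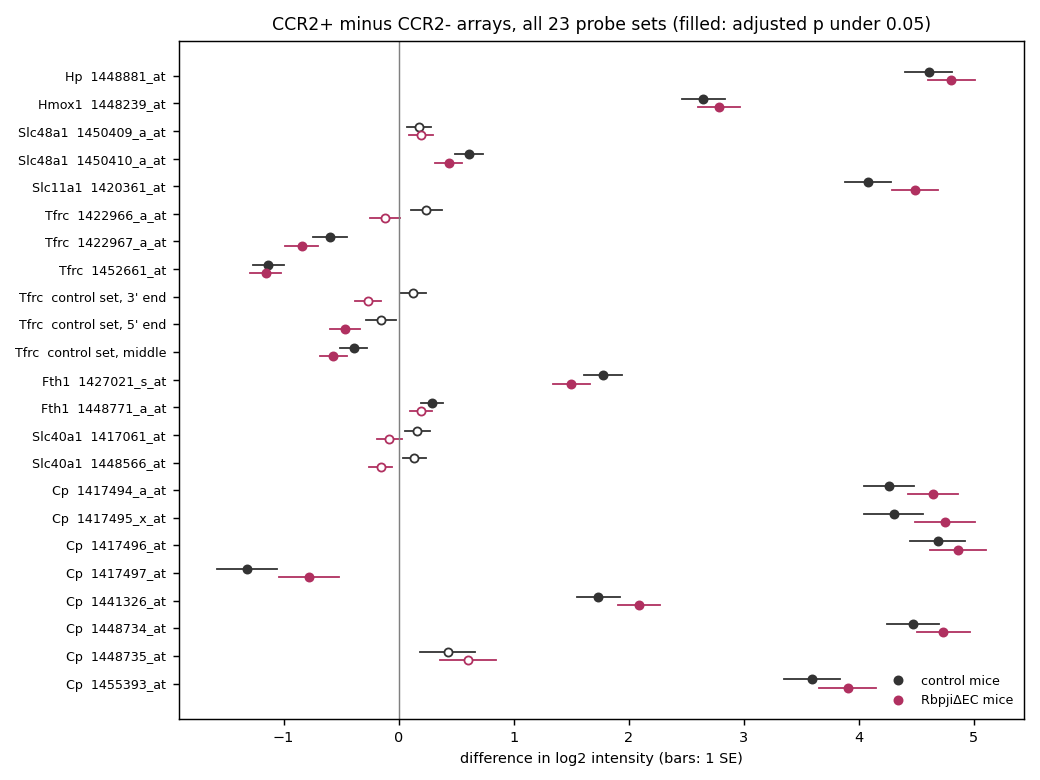
Difference in log2 intensity between CCR2+ and CCR2- arrays for all 23 probe sets, in control (dark) and RbpjiΔEC mice (red), with bars of 1 SE and filled points where the limma adjusted p was under 0.05. Hp, Slc11a1 and 5 Cp sets lie beyond 3.5 on the positive side in both genotypes, Tfrc sets lie at or below 0.24, and 1 Cp set, 1417497_at, lies on the negative side.

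Cp encodes ceruloplasmin, the ferroxidase that loads exported iron onto transferrin, and its 8 probe sets did not agree. Set 1417496_at read 12.06, 12.06, 11.91 and 11.42 in the CCR2+ and 6.83, 7.20, 7.20 and 7.48 in the CCR2- control arrays. The groups stood more than 3 units apart, with a difference of 4.69 (SE 0.242), or 25.7-fold (limma adjusted p = 9.51e-11), and 4.86 (SE 0.242, adjusted p = 5.84e-11) in RbpjiΔEC mice. Sets 1417494_a_at, 1417495_x_at, 1448734_at and 1455393_at differed by 4.26, 4.30, 4.47 and 3.59 in control and by 4.64, 4.75, 4.74 and 3.90 in RbpjiΔEC mice, all called. For 1448734_at 1 CCR2- control and 2 CCR2- RbpjiΔEC arrays lay within the range of the bacterial controls, as did 1 CCR2- RbpjiΔEC array each for 1417495_x_at and 1417496_at, so these differences may understate the true ones.

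Set 1417497_at differed from these. It read 9.76, 10.11, 9.82 and 9.30 in the CCR2+ and 11.75, 10.94, 11.17 and 10.40 in the CCR2- control arrays. Its CCR2+ mean was the lower one, by −1.32 (SE 0.262, limma adjusted p = 0.000617), and by −0.78 (SE 0.262, adjusted p = 0.0258) in RbpjiΔEC mice. The second call was lost without CCR2+ RbpjiΔEC 2 (adjusted p = 0.0891), CCR2- RbpjiΔEC 1 (0.0892) or CCR2- RbpjiΔEC 2 (0.0551), and under median centring (−0.45, adjusted p = 0.0962). With no normalization the difference in control mice was −0.85 (adjusted p = 0.00149). The annotation gives the same source record for this set and 5 others of Cp, 4 of which were higher by 4.26 to 4.69, so the record does not say which stretch of the transcript each set reads. It is the Cp set with the highest mean over the 16 arrays and therefore stands for Cp where 1 set per gene is taken. The mean of all 8 sets was 2.77 higher in CCR2+ control (SE 0.154, adjusted p = 2.70e-10) and 3.10 higher in CCR2+ RbpjiΔEC arrays (adjusted p = 6.31e-11).

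Set 1448735_at did not pass in either genotype, at 0.43 (SE 0.243, limma adjusted p = 0.182) and 0.61 (SE 0.243, adjusted p = 0.0594). It passed under several alternatives. In control mice these were leaving out CCR2- control 1 (0.65, adjusted p = 0.0288) or CCR2- control 1 and 3 (0.86, 0.0103), array weights (0.59, 0.0458) and no normalization (0.59, 0.0293). In RbpjiΔEC mice they were leaving out CCR2+ RbpjiΔEC 2 (0.79, adjusted p = 0.0153), median centring (0.63, 0.0391), no normalization (0.92, 0.000760), array weights (0.75, 0.00706), the 8 arrays alone (0.0294) and the filter on dim sets (0.0414). Set 1441326_at read 7.69 to 7.94 in CCR2+ control arrays. Its CCR2- control values of 5.98 to 6.19 lay at the bacterial controls, so its difference of 1.74 (SE 0.186, adjusted p = 9.33e-07) understates any true one.

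**Figure D3:**
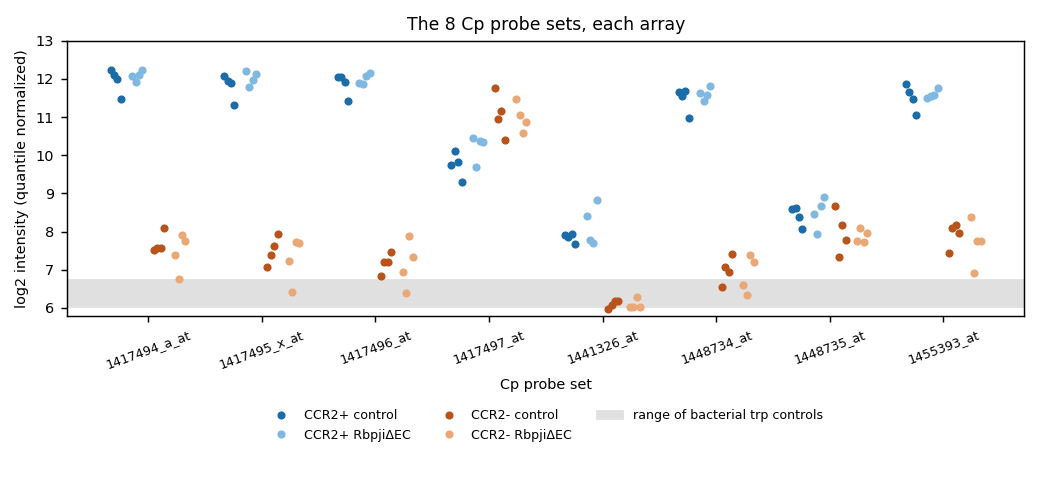
Log2 intensity (quantile normalized) of the 8 Cp probe sets in each of the 16 arrays, coloured by group, with the range of the bacterial trp controls, 6.03 to 6.72, shaded. In 5 sets the CCR2+ arrays read 10.97 or more and the CCR2- arrays 8.38 or less, while in 1417497_at every CCR2- array but 1 lies above every CCR2+ array.

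The comparison of the labels in RbpjiΔEC mice asks the same question in the other genotype. It shares no array with the comparison in control mice, although the spread was estimated over all 16. Of the 23 member sets 11 were higher, 5 lower and 7 did not pass, where 39.1% of all probe sets passed (18.8% higher and 20.3% lower). The median difference was 0.435 over the members and −0.0217 over all probe sets. By gene, 3 of 8 were higher and 2 lower, where 39.0% of genes passed. The calls differed from those in control mice at 1448771_a_at of Fth1, called only in control mice, and at the 5′ Tfrc control set, called only in RbpjiΔEC mice. The interaction, which tests whether the difference between the labels differed by genotype, was called for 0 of 23 member sets and for 0.00% of all probe sets (limma). At an unadjusted p under 0.05 it had 2 members, set 1448566_at of Slc40a1 (−0.29, SE 0.138) and the 3′ Tfrc control set (−0.39, SE 0.159), where 3.28% of all probe sets did.

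The effect of the endothelial Rbpj deletion on the sorted cells was asked within each label. In the CCR2+ arrays 0 of 23 member sets were called, where 0.00572% of all probe sets (2 of 34958) were, and the lowest adjusted p among the members was 0.855 (limma). At an unadjusted p under 0.05 there were 5 members, all lower in RbpjiΔEC, where 4.90% of all probe sets passed that mark. They belong to Slc40a1 and Tfrc alone and are not 5 separate findings. Both Slc40a1 sets were among them, 1448566_at, whose 4 RbpjiΔEC arrays lay within the range of the bacterial controls, at −0.34 (SE 0.0976, 95% interval −0.543 to −0.129, adjusted p = 0.855) and 1417061_at at −0.28 (SE 0.107, 95% interval −0.509 to −0.0561, adjusted p = 0.962). For 1417061_at, 3 RbpjiΔEC arrays read 7.15 to 7.21, below the lowest control array at 7.47, and the fourth read 7.55, within the control range. The other 3 were Tfrc sets, the 3′ control set at −0.38 (SE 0.113), 1422966_a_at at −0.37 (SE 0.132) and the 5′ control set at −0.33 (SE 0.129). The brightest Tfrc set did not follow, at −0.04 (SE 0.135, 95% interval −0.326 to 0.246). The beta-actin 3′ minus 5′ difference was 0.386 ± 0.0962 in RbpjiΔEC and 0.262 ± 0.0744 in control arrays (SD, n = 4 each, two-sided exact permutation p = 0.0857), and its part in these values was not tested.

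For the members with the largest label differences the genotype intervals in CCR2+ arrays were narrow against those differences. Hp differed by −0.07 (95% interval −0.506 to 0.365), Slc11a1 by −0.12 (−0.543 to 0.308), Hmox1 by −0.18 (−0.574 to 0.212) and 1417496_at of Cp by 0.14 (−0.368 to 0.656). The other Cp sets also read above 0. The largest were its brightest set 1417497_at, at 0.47 (−0.0871 to 1.02), and 1441326_at, at 0.33 (−0.0599 to 0.729). For Fth1 the intervals were −0.243 to 0.159 for 1448771_a_at and −0.562 to 0.123 for 1427021_s_at. For Slc48a1 the intervals were −0.490 to 0.0136 for 1450410_a_at and −0.269 to 0.179 for its brighter set 1450409_a_at. Most of these intervals leave room for changes of a fraction of a log2 unit in either direction. Slc48a1 1450410_a_at has almost no room upward. Sets 1417497_at and 1441326_at of Cp have little downward, and 1417497_at reaches 1.02 upward.

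In the CCR2- arrays 0 of 23 member sets were called, as were 0.00% of all probe sets (limma, 0 of 34958). One member passed an unadjusted p under 0.05, where 2.27% of all probe sets did. It was Slc11a1, at 7.97, 7.82, 7.71 and 7.63 in RbpjiΔEC against 8.84, 7.88, 8.07 and 8.43 in control arrays, a difference of −0.53 (SE 0.200, 95% interval −0.952 to −0.102, adjusted p = 1.000). The groups overlapped. Hmox1 differed by −0.32 (95% interval −0.712 to 0.0739), Hp by −0.27 (−0.705 to 0.166) and 1452661_at of Tfrc by −0.02 (−0.305 to 0.267). Both genotype comparisons share their arrays with the label comparisons.

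**Figure D4:**
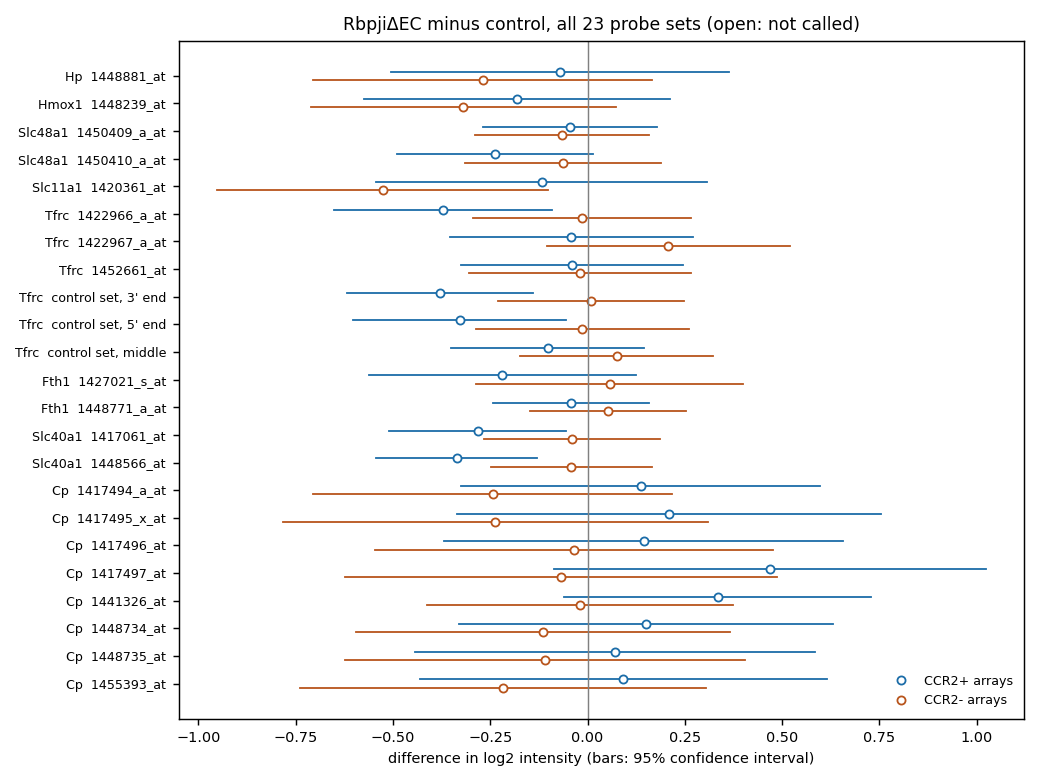
Difference in log2 intensity between RbpjiΔEC and control arrays for all 23 probe sets, in CCR2+ (blue) and CCR2- arrays (orange), with 95% confidence intervals before adjustment; all points are open because none had a limma adjusted p under 0.05. Both Slc40a1 sets and 3 Tfrc sets lie below 0 in the CCR2+ arrays, and Slc11a1 lies below 0 in the CCR2- arrays, with intervals that do not reach 0.

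The genes around the members were taken as 6 lists with 91 of 98 genes measured, each gene by its brightest probe set. In control mice 35 had higher and 14 had lower CCR2+ values (limma), where 19.5% of genes were higher and 21.4% lower, with a median difference of 0.192 against −0.0309 over all genes. In RbpjiΔEC mice 33 were higher and 11 lower, with a median of 0.0833 against −0.0275, where 18.0% and 21.0% of genes were. In both genotype comparisons and in the interaction 0 of 91 were called, as were 0.00% of genes. Median centring made the split in control mice 43 higher and 7 lower, and the deposited values with no normalization made it 46 and 3, so the share of higher genes rests on the scaling.

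In the list of heme and haemoglobin uptake, export and breakdown 7 of 13 genes were higher and 1 lower in control mice, with a median difference of 0.366, and 8 and 1 in RbpjiΔEC mice. Counts of this and the next lists stand against 19.5% of all genes higher and 21.4% lower in control mice and 18.0% and 21.0% in RbpjiΔEC mice. Lrp1, a receptor for hemopexin-bound heme among many ligands, differed by 4.18 (SE 0.186, limma adjusted p = 1.63e-11) and Blvrb, a biliverdin reductase, by 2.29 (SE 0.204). Flvcr2, a transporter of the FLVCR family, was lower by −0.71 (SE 0.231, adjusted p = 0.0198). Cd163, the haptoglobin-haemoglobin receptor, read 8.37 ± 0.25 against 7.50 ± 1.02 (SD, n = 4 each) and did not pass in control mice (0.86, SE 0.456, adjusted p = 0.147). It was called in RbpjiΔEC mice at 1.30 (SE 0.456, adjusted p = 0.0320), and its interaction was not called.

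Of 12 genes of heme synthesis 3 were higher and 4 lower in control mice, near the 19.5% and 21.4% of all genes, with a median difference of −0.174 against −0.0309. Alas1, the first enzyme of the pathway, was higher by 1.40 (SE 0.231, limma adjusted p = 0.000104) and Fech, the last, by 0.56 (SE 0.0818). Abcb10, a mitochondrial transporter, was lower by −1.12 (SE 0.169) and Uros, an enzyme of the middle of the pathway, by −0.66 (SE 0.157). In RbpjiΔEC mice 2 were higher and 3 lower.

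Among genes of iron uptake, reduction, storage and release 6 of 20 were higher and 2 lower in control mice, where 19.5% and 21.4% of all genes were. Their median difference was −0.0393, against −0.0309 over all genes. Slc39a8, a zinc and iron importer, was higher by 2.28 (SE 0.141, limma adjusted p = 9.95e-10) and Steap3, which reduces iron released from transferrin, by 2.05 (SE 0.177). Pcbp2, an iron chaperone and RNA-binding protein, was lower by −0.36 (SE 0.0908) and Tfr2, the second transferrin receptor, by −0.32 (SE 0.104). In RbpjiΔEC mice 5 were higher and 1 lower.

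Among genes of iron sensing and hepcidin control 6 of 15 were higher and 3 lower in control mice, with a median difference of 0.0704. Epas1, the hypoxia-inducible factor HIF-2α, differed by 4.87 (SE 0.202, limma adjusted p = 6.37e-12) and Bmp2, a growth factor that induces hepcidin in liver, by 4.47 (SE 0.129). Tmprss6, a protease that restrains hepcidin, was lower by −0.55 (SE 0.0908) and Bmp6 by −0.52 (SE 0.202, adjusted p = 0.0492). Of the iron regulatory proteins, Aco1 (IRP1) was higher by 1.39 (SE 0.158, adjusted p = 1.80e-06) and Ireb2 (IRP2) did not pass, at −0.14 (SE 0.142, adjusted p = 0.462). In RbpjiΔEC mice 7 were higher and 2 lower, with Aco1 at 1.12 (SE 0.158) and Ireb2 at −0.14 (SE 0.142).

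Among mitochondrial iron and iron-sulfur cluster genes 4 of 13 were higher and 1 lower in control mice, with a median difference of 0.0186, and 3 and 2 in RbpjiΔEC mice, where 18.0% and 21.0% of all genes were. Iscu, the cluster scaffold, differed by 1.00 (SE 0.117) and Lyrm4, a partner of the cysteine desulfurase, by 0.70 (SE 0.202). Slc25a28, mitoferrin 2, was lower by −0.40 (SE 0.144, limma adjusted p = 0.0330).

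The last list held NRF2, BACH1 and SPIC, transcription factors that act on Hmox1 or in heme-laden macrophages, with targets of NRF2. In control mice 9 of 18 were higher and 3 lower, with a median difference of 0.648, and in RbpjiΔEC mice 8 and 2. Srxn1, which repairs peroxiredoxins, differed by 3.18 (SE 0.173, limma adjusted p = 1.91e-10) and Gsr, glutathione reductase, by 3.07 (SE 0.162). Gclc, an enzyme of glutathione synthesis, was lower by −0.70 (SE 0.113) and Maff by −0.54 (SE 0.208, adjusted p = 0.0482). Bach1, which represses Hmox1, was higher by 1.63 (SE 0.167, adjusted p = 5.14e-07), and Nfe2l2, which encodes the activator NRF2, by 0.80 (SE 0.137, adjusted p = 0.000163). Spic, a regulator of red pulp macrophages, read 6.82 in CCR2+ control arrays, just above the bacterial controls, and did not pass (−0.18, SE 0.174).

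**Figure D5:**
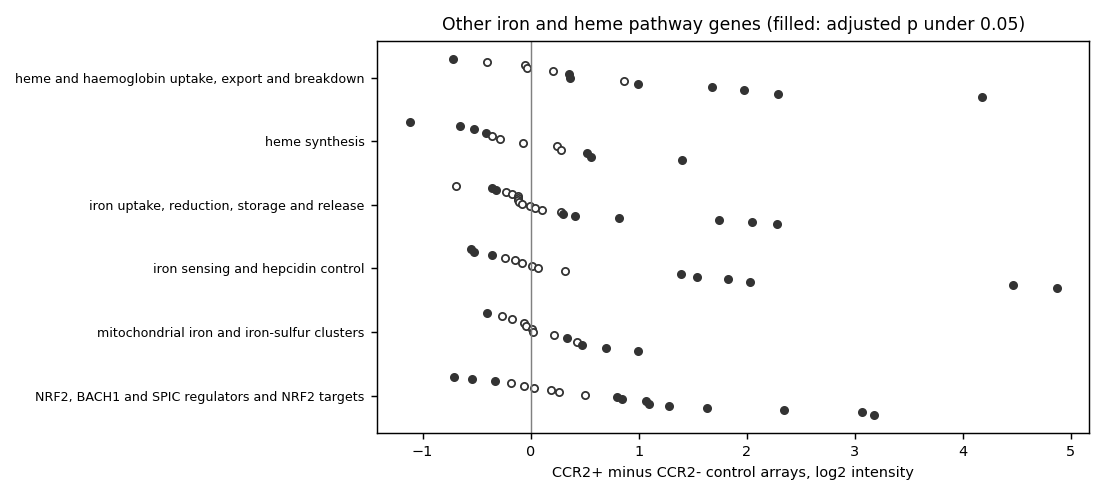
Difference in log2 intensity between CCR2+ and CCR2- control arrays for the 91 measured genes of the 6 lists, 1 point per gene, filled where the limma adjusted p was under 0.05. Points to the right of 0 are higher in CCR2+ arrays; Epas1, Bmp2 and Lrp1 lie beyond 4, and the lowest point is Abcb10 at −1.12.

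In the genotype comparisons no listed gene was called (limma). The smallest p of each list in CCR2+ arrays belonged to Slc7a11 (−0.62, SE 0.206), Aco1 (−0.39, SE 0.158), Cisd2 (−0.30, SE 0.121), Alad (−0.43, SE 0.175), Hebp1 (−0.36, SE 0.159) and Mcoln1 (−0.30, SE 0.151), each with an adjusted p of 0.962. In CCR2- arrays they were Lcn2 (−1.08, SE 0.473), Flvcr1 (−0.37, SE 0.205), Tmprss6 (−0.16, SE 0.0908), Ppox (−0.25, SE 0.144), Sqstm1 (0.14, SE 0.133) and Nfs1 (−0.09, SE 0.125), each at 1.000. Lcn2, an iron-siderophore binding protein, is also on the neutrophil list, whose mean was 8.84 in CCR2- control 2.

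The pattern of each member over the 16 arrays was set against 18186 other genes by the root mean square difference in log2 units after each gene's own mean was removed. The arrays share their labels, so for members well separated by label a small difference describes a like split. For Slc40a1 and the brightest sets of Slc48a1 and Fth1, whose label differences were small, other genes that changed little also give small values. Nearest to Hp were Padi4 (0.302), Lbp (0.319) and Ptgis (0.331), and nearest to Slc11a1 were Cmklr1 (0.220), Lrp1 (0.265) and Emilin2 (0.283). Nearest to Hmox1 were Camk1 (0.203), Agtrap (0.205) and Ltc4s (0.236), and nearest to Tfrc were Nfatc2ip (0.129), Ppcs (0.139) and Tia1 (0.146). Fth1 by its brightest set was nearest to Eef1b2 (0.0837), Gapdh (0.0863) and Hsd17b14 (0.0923), and Slc48a1 to Naxd (0.0759), Sgta (0.0846) and C630043F03Rik (0.0850). For Slc40a1, whose groups overlapped, the nearest were Pga5 (0.115), Rhot1 (0.117) and 6030498E09Rik (0.119). For Cp, taken by 1417497_at, they were Il17rb (0.127), Gpr22 (0.129) and Kcnj13 (0.171), and these do not describe the other Cp sets.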

How the data were processed

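Per the labels, sorted TAM RNA was isolated with a PicoPure kit, biotin labelled and hybridized. The deposited values are linear probe set intensities per array, with the method of summary and normalization not given in the sources used here. All 16 columns were mapped to samples by title, and 0 columns were left over. Intensities were log2 transformed and quantile normalized over the 16 arrays. Probe sets with several symbols (932) or without an entry in the annotation (9211) were not tested, and no intensity filter was applied. Differences were fitted with limma 3.58.1 (R 4.3.3), 1 mean per group, for 5 comparisons, with Benjamini-Hochberg adjustment over 34958 probe sets, two-sided, threshold 0.05. Errors are limma SEs, or SDs over 4 arrays. The labels do not say that arrays are separate animals, so p-values measure the spread between these samples, which may be technical. Precision is limited by the array number. Columns gave no dates, so batches were not tested. The fit was tested on simulated data.

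The text names every member, and from each list at most 2 called genes per direction with the largest difference, or the gene with the smallest p. It also names 13 genes always taken and the 3 genes nearest each member in pattern. The members, the lists and this rule were chosen with earlier results of these data known. Gene positions and upstream sequences are RefSeq's (GRCm38.p6). Alternatives were median centring, no normalization, an offset of 16, a filter on dim sets, 1 set or the mean per gene, other eBayes settings, array weights, only the arrays compared, the replicate number as a block, and leaving out arrays. Dropping CCR2- control 1 and 3 was added after seeing the data.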

Additional observations from a re-analysis of the deposited data

Results flagged for a closer look

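In each group of 4 arrays the highest or lowest value of the brightest probe set of each gene was compared with the other 3. In 5 of 32 series it stood apart, with a gap larger than Dixon's 95% critical share of the group's whole range; chance flags about 1 in 20. Hmox1 read 8.31 in CCR2- control 1, where the next highest array was at 7.59. The mean of the measured monocyte and small peritoneal macrophage markers in that array was 10.11, against 8.84 to 9.24 in the other 3. The part of such cells in the Hmox1 value was not tested. Fth1 1448771_a_at read 12.41 in the same array, below the next at 12.81. Slc40a1 1417061_at read 7.55 in CCR2+ RbpjiΔEC 4, above the next at 7.21. Cp 1417497_at read 9.70 in CCR2+ RbpjiΔEC 2, below the next at 10.36. Hp read 7.75 in CCR2- RbpjiΔEC 1, below the next at 7.83.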

How the results depend on the processing

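Taking 1 probe set per gene left 6 of 8 members called in control mice (4 higher, 2 lower) and 5 of 8 in RbpjiΔEC mice. These counts are of genes and not of probe sets. The mean of all sets of a gene left 7 of 8 in each. Both settings tested 18194 genes. With the mean, Slc48a1 was called in control (0.39) and RbpjiΔEC mice (0.32), and Fth1 also in RbpjiΔEC mice (0.85). That mean turned Cp from the sign of 1417497_at to 2.77 in control and 3.10 in RbpjiΔEC mice. Leaving out 1 array at a time gave 15 to 16 member calls in both, and all other settings 14 to 20. The genotype comparisons and the interaction had 0 member calls under every setting run. Of all probe sets 2 were called for genotype in CCR2+ arrays, and 0 to 5 under the alternatives. Nothing in the labels says that replicate numbers pair the arrays, and the data did not settle it (same-number deviations correlated from −0.362 to 0.373, and 3, 3, 0 and 2 of 4 pairs matched best with their own number in the 2 label and 2 genotype comparisons). With the number as a replicate block 16 members were called in each label comparison, and with genotype and number together as the block 17 in each. The latter called 1422966_a_at of Tfrc in control mice (0.24, limma adjusted p = 0.0338) and the 3′ Tfrc control set in RbpjiΔEC mice (−0.26, adjusted p = 0.0449). Median centring raised the share of higher calls over all probe sets in control mice from 50.3% to 62.2%, and no normalization to 72.1%. With no normalization the median of all probe sets moved by 0.106 and 0.317 in the label comparisons, and 1417497_at of Cp differed by −0.16 in RbpjiΔEC mice (limma adjusted p = 0.605). Signals near the bacterial controls limit what Slc40a1 1448566_at, Cp 1441326_at and the 5′ Tfrc control set can show, and touch 1 or 2 CCR2- arrays of Cp 1448734_at, 1417495_x_at and 1417496_at.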
